A study of Mus musculus with 18 samples.

Results

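The chemokine receptor genes Ccr8, Ccr4, Cxcr6, Cxcr3, Cxcr4 and Ccr2 of effector T cells were followed in cultured mouse CD4+ T cells. They were taken by gene symbol, 6 of the 22783 symbols of experiment 1 and 6 of the 16639 symbols of experiment 2. All cells were naive splenic CD4+ T cells of C57BL/6 mice, activated through CD3 and CD28 by antibodies and taken on day 4. In experiment 1 they came from Cd4Cre control mice (WT) or from Egln1fl/fl Egln2fl/fl Egln3fl/fl Cd4Cre mice (tKO), and both genotypes were cultured with 0, 0.2 or 2 ng/ml TGF-b, with 2 libraries per group. The control mice thus carry Cd4Cre too, which acts in all developing T cells and not only in CD4+ cells. In experiment 2, Wildtype cells received 2 ng/ml TGF-b with vehicle or with 1 mM dimethyloxaloylglycine (DMOG), with 3 libraries per group. Values are FPKM, fragments scaled by transcript length and by the number of mapped fragments, so levels of different genes can be compared per length.

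Chemokine receptors are G protein-coupled receptors that steer migrating cells along gradients of small secreted proteins, the chemokines. Naive T cells circulate through lymph nodes with Ccr7, and after activation T helper subsets take up different receptors that lead them to inflamed tissue: Ccr4 and Ccr8 are typical of Th2 and regulatory T cells, Cxcr3 and Cxcr6 of Th1 and tissue-resident cells. Egln1, Egln2 and Egln3 encode the PHD enzymes, which use oxygen to mark the transcription factor HIF for degradation, DMOG inhibits enzymes of this class, and TGF-b turns activated naive CD4+ T cells towards regulatory T cells.

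The targeted genes were read first. Egln1 ran from 92.8 to 122 FPKM in the 6 tKO libraries and from 20.4 to 44.3 FPKM in the 6 WT libraries, Egln3 from 77.4 to 140.2 FPKM against 5.68 to 18.7 FPKM, and Egln2 from 19.9 to 39.0 FPKM against 35.6 to 48.8 FPKM. A floxed allele loses only some exons, so 1 value per gene does not test the deletion. The 3 libraries of tKO replicate 1 held 60.5 to 67.6 FPKM of Y-linked transcripts and the other libraries of both experiments at most 0.015 FPKM, so the replicates of tKO differ in sex and come from different animals. Summed over entries with a symbol, the FPKM of a library lay between 521172 and 834683 in experiment 1, and between 386268 and 443734 in experiment 2. These sums went with the groups. In experiment 1 they were 593516 to 638919 in WT, 653168 to 834683 in tKO at 0 and 0.2 ng/ml, and 535756 and 521172 in tKO at 2 ng/ml. In experiment 2 they were 386268 to 417004 with vehicle and 429635 to 443734 with DMOG. The files give no counts, so the depth is unknown. For the other groups nothing says that replicates come from separate animals, so p-values measure the spread between these samples, which may there be technical. In bulk RNA, fewer cells of a type and less RNA per cell cannot be told apart.

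Ccr8, the receptor for Ccl1, was the most abundant of the 6 receptors in every library of both experiments. In WT cells its level was 67.5 and 87.1 FPKM without TGF-b, 146 and 200.05 FPKM at 0.2 ng/ml, and 465 and 404 FPKM at 2 ng/ml. In tKO cells it was 349 and 379 FPKM without TGF-b, 464 and 379 FPKM at 0.2 ng/ml, and 663 and 629.8 FPKM at 2 ng/ml. Both tKO libraries stood above both WT libraries at each dose. WT without TGF-b was the lowest group, followed by WT at 0.2 ng/ml, and tKO at 2 ng/ml was the highest, while tKO without TGF-b, tKO at 0.2 ng/ml and WT at 2 ng/ml overlapped from one neighbour to the next. Tests used limma on log2(FPKM + 1), with p-values adjusted over all genes tested and a threshold of 0.05, and differences are on that log2 scale ± SE. Ccr8 rose in tKO over WT by 2.23 ± 0.19 without TGF-b (adjusted p = 7.73e-06) and by 1.29 ± 0.19 at 0.2 ng/ml (adjusted p = 0.000502). The difference at 2 ng/ml was 0.58 ± 0.19 and missed the threshold (adjusted p = 0.0578, 95% interval 0.16 to 0.99), while it passed after quantile normalization (0.86, adjusted p = 0.00597) and with only the groups compared in the fit. Over its alternatives that adjusted p ran from 0.00597 to 0.270.

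Ccr8 rose with 2 ng/ml TGF-b in both genotypes, and on the log2 scale the rise was smaller in tKO cells, which started higher. Mean levels went from 77.3 to 434 FPKM in WT and from 364 to 647 FPKM in tKO, and a difference in FPKM was not tested. In WT cells Ccr8 rose by 1.15 ± 0.19 at 0.2 ng/ml (adjusted p = 0.00841) and by 2.48 ± 0.19 at 2 ng/ml (adjusted p = 3.98e-06), and by 1.34 ± 0.19 between those doses (adjusted p = 0.00703). In tKO cells it rose by 0.83 ± 0.19 at 2 ng/ml (adjusted p = 0.0102), and at 0.2 ng/ml the difference was 0.20 (adjusted p = 0.673, 95% interval -0.21 to 0.62). The TGF-b effect of 2 ng/ml differed between genotypes by -1.66 ± 0.27, tKO minus WT (adjusted p = 0.00655), and that call held in each alternative run, with adjusted p from 0.00369 to 0.0483. The same comparison at 0.2 ng/ml gave -0.94 ± 0.27 and missed the threshold (adjusted p = 0.223). Both differences of effects share the libraries of WT and of tKO without TGF-b. The genotype difference without TGF-b uses these libraries too, and the rises from 0 ng/ml use those of their genotype. The Ccr8 calls between genotypes at 0 and 0.2 ng/ml and the rise in WT at 2 ng/ml also held in each alternative run. The remaining Ccr8 calls of experiment 1 were lost without single libraries. The rise at 0.2 ng/ml in WT was not called without WT replicate 1 at 0 ng/ml (0.96), without WT replicate 2 at 0.2 ng/ml (0.92), with no filter on low values or with only the groups compared, with adjusted p from 0.00325 to 0.143 over all alternatives. The rise from 0.2 to 2 ng/ml in WT was not called without WT replicate 1 at 0.2 ng/ml (1.11) or without WT replicate 1 or 2 at 2 ng/ml (1.24 and 1.44), nor with only the groups compared, with adjusted p from 0.00373 to 0.121. The rise in tKO was not called without tKO replicate 2 at 0 ng/ml (0.89), tKO replicate 1 or 2 at 2 ng/ml (0.79 and 0.86) or all libraries of tKO replicate 1 (0.73), with adjusted p from 0.000269 to 0.103.

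**Figure D1:**
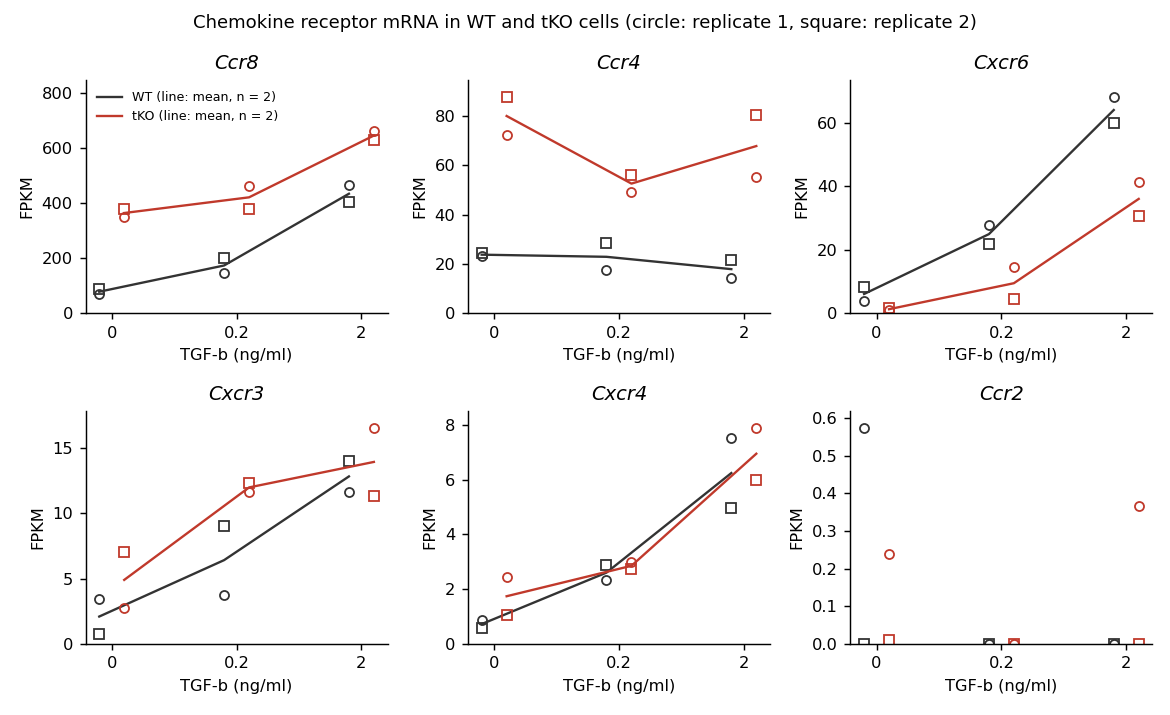
Level in FPKM (vertical axis, 1 panel per receptor, linear from 0) of the 6 receptors against TGF-b dose in ng/ml, with doses drawn at equal steps and not to scale. Points are single libraries of WT and tKO, with symbols for the replicates, and lines join group means (n = 2). Ccr8 climbed in WT from 67.5 and 87.1 FPKM to 465 and 404 FPKM and started at 349 and 379 FPKM in tKO, and the tKO points of Ccr4 lie above all WT points.

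Ccr4, the receptor for Ccl17 and Ccl22, followed genotype at each dose. WT cells held 23.2 and 24.2 FPKM without TGF-b, 17.3 and 28.4 FPKM at 0.2 ng/ml, and 14.2 and 21.4 FPKM at 2 ng/ml. In tKO cells its level was 72.4 and 87.8 FPKM without TGF-b, 49.2 and 56.0 FPKM at 0.2 ng/ml, and 55.1 and 80.6 FPKM at 2 ng/ml. All 6 tKO libraries stood above all 6 WT libraries. In WT, 0.2 ng/ml overlapped the other doses, while both libraries without TGF-b stood above both at 2 ng/ml. In tKO, 2 ng/ml overlapped the other doses, while both libraries without TGF-b stood above both at 0.2 ng/ml. Ccr4 rose in tKO by 1.71 ± 0.26 without TGF-b (adjusted p = 0.000946), 1.21 ± 0.26 at 0.2 ng/ml (adjusted p = 0.00748) and 1.87 ± 0.26 at 2 ng/ml (adjusted p = 0.000398). TGF-b at 2 ng/ml gave -0.42 in WT (adjusted p = 0.317, 95% interval -0.99 to 0.15) and -0.25 in tKO (adjusted p = 0.556, 95% interval -0.83 to 0.32), neither past the threshold. At 0.2 ng/ml it gave -0.09 in WT (adjusted p = 0.945) and -0.59 in tKO (adjusted p = 0.300, 95% interval -1.16 to -0.02), also not called. The genotype call at 0.2 ng/ml was lost without WT replicate 1 (0.86) or tKO replicate 2 (1.11) at that dose and with only these groups in the fit, with adjusted p from 0.000779 to 0.104 over all alternatives.

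Cxcr6, the receptor for Cxcl16, moved with TGF-b in both genotypes and was lower in tKO cells at the lower doses. Its level in WT cells was 3.80 and 8.16 FPKM without TGF-b, 27.9 and 21.9 FPKM at 0.2 ng/ml, and 68.2 and 60.0 FPKM at 2 ng/ml. In tKO cells it was 0.915 and 1.45 FPKM without TGF-b, 14.5 and 4.26 FPKM at 0.2 ng/ml, and 41.4 and 30.6 FPKM at 2 ng/ml. At each dose both tKO libraries lay under both WT libraries, and WT at 2 ng/ml was the highest group. Only tKO at 0.2 ng/ml and WT without TGF-b overlapped among neighbouring groups. Cxcr6 rose at 2 ng/ml TGF-b by 3.29 ± 0.43 in WT (adjusted p = 0.000253) and by 4.08 ± 0.43 in tKO (adjusted p = 6.91e-05). These were its strongest calls and held in each alternative run. The TGF-b effects differed between genotypes by 0.79 ± 0.60 (adjusted p = 0.509, 95% interval -0.51 to 2.09), which does not show that they are alike.

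The smaller Cxcr6 differences depended on single libraries. Cxcr6 fell in tKO against WT by 1.62 ± 0.43 without TGF-b (adjusted p = 0.0275) and by 1.51 ± 0.43 at 0.2 ng/ml (adjusted p = 0.0295). For 2 ng/ml it was -0.83 ± 0.43 and not called (adjusted p = 0.214, 95% interval -1.74 to 0.09), but passed with only the groups compared (adjusted p = 0.0215, and 0.0215 to 0.571 over all alternatives). The first call was lost without tKO replicate 1 (-1.44), tKO replicate 2 (-1.79) or WT replicate 2 (-1.15) at that dose, without all libraries of tKO replicate 1 (-1.44), and with no filter on low values, with adjusted p from 0.0132 to 0.264 over all alternatives. The second was lost without WT replicate 1 (-1.34), WT replicate 2 (-1.68) or tKO replicate 2 (-0.73) at that dose, with no filter, and with only these groups in the fit, with adjusted p from 0.00115 to 0.275. From 0 to 0.2 ng/ml Cxcr6 rose by 1.95 ± 0.43 in WT (adjusted p = 0.0355) and by 2.06 ± 0.43 in tKO (adjusted p = 0.0228), and from 0.2 to 2 ng/ml by 2.02 ± 0.43 in tKO (adjusted p = 0.0116). In WT the rise at 0.2 ng/ml was lost without WT replicate 1 at 0 ng/ml (1.49) or without WT replicate 1 or 2 at 0.2 ng/ml (1.79 and 2.12), with adjusted p from 0.0293 to 0.363. In tKO the rise at 0.2 ng/ml was lost without tKO replicate 1 or 2 at 0 ng/ml (1.88 and 2.24), tKO replicate 1 at 0.2 ng/ml (1.28) or all of tKO replicate 1 (1.10), with adjusted p from 0.00213 to 0.292. The step from 0.2 to 2 ng/ml in tKO was lost without tKO replicate 2 at 0.2 ng/ml (1.24) or tKO replicate 1 or 2 at 2 ng/ml (1.81 and 2.23), with adjusted p from 0.000432 to 0.135. These 3 calls were also lost with no filter on low values and with only the groups compared, and the first of them with a pseudocount of 0.1 FPKM.

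The stretch of 250 bases before the transcription start is shown for 4 receptors: Ccr8, Cxcr6 and Cxcr4, which rose with 2 ng/ml TGF-b in both genotypes, and Ccr4, which was not called for TGF-b and was higher in every tKO library. All 6 receptors had an entry in RefSeq promoters of the GRCm38.p6 build, and sequences run 5′ to 3′ along the gene's own strand. Capitals mark matches, on either strand, to a HIF motif (ACGTG or GCGTG) or a SMAD motif (CAGAC), the transcription factors of the oxygen and TGF-b pathways.
Ccr8, chr9:120091883-120092132, + strand: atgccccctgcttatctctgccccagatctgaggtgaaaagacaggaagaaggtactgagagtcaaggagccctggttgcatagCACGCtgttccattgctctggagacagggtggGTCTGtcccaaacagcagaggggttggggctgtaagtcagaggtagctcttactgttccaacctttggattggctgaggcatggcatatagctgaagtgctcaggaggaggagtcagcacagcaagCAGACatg
Cxcr6, chr9:123806227-123806476, + strand: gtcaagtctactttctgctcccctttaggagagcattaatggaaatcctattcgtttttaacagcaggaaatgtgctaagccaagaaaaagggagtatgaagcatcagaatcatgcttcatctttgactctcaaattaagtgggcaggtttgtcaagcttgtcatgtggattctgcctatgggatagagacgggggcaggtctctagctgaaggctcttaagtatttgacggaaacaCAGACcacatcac
Ccr4, chr9:114496545-114496794, - strand: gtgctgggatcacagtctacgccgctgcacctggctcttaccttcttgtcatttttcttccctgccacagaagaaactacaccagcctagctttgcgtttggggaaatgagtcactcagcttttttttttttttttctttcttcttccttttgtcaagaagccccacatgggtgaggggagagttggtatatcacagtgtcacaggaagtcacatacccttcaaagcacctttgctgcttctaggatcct
Cxcr4, chr1:128592300-128592549, - strand: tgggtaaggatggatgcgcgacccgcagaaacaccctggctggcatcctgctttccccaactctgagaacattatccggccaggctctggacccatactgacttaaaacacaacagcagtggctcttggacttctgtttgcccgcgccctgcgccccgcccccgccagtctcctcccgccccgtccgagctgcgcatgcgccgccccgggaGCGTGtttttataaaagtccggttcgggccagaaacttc

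Ccr8 held 2 SMAD matches, 134 and 8 bases before its start, and 1 HIF match 166 bases before it. Cxcr6 held 1 SMAD match 13 bases before its start and no HIF match, Cxcr4 held 1 HIF match 39 bases before its start, and Ccr4 held neither. Of the receptors not printed, Cxcr3 held 1 HIF match 103 bases before its start and Ccr2 held none of either. Ccr8, 239 bases before its start, and Ccr2, 97 bases before it, each also held 1 GATA match (AGATAA), and none of the 6 held a T-box match (GGTGTG). Among 32851 mouse promoters of the same length, 38.6% held a HIF match, 42.2% a SMAD match, 10.0% a GATA match and 16.3% a T-box match. Thus Ccr8 and Cxcr6 held a SMAD match and Cxcr4 and Cxcr3, which also rose with TGF-b in WT, did not. A match describes the letters and does not show binding.

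Cxcr3, the receptor for the interferon-induced chemokines Cxcl9, Cxcl10 and Cxcl11, was low without TGF-b. In WT cells it stood at 3.41 and 0.770 FPKM without TGF-b, at 3.76 and 9.06 FPKM at 0.2 ng/ml, and at 11.7 and 14.0 FPKM at 2 ng/ml. In tKO cells it stood at 2.72 and 7.07 FPKM without TGF-b, at 11.6 and 12.3 FPKM at 0.2 ng/ml, and at 16.5 and 11.3 FPKM at 2 ng/ml. The 3 highest groups, both genotypes at 2 ng/ml and tKO at 0.2 ng/ml, overlapped from one neighbour to the next, and so did the 3 lowest. Cxcr3 rose by 2.30 ± 0.47 in WT at 2 ng/ml (adjusted p = 0.00533), while in tKO the difference of 1.42 ± 0.47 missed the threshold (adjusted p = 0.0516, 95% interval 0.41 to 2.44). With a replicate block within tKO, the replicate number as a covariate among the tKO libraries, it passed (adjusted p = 0.0380, and 0.0380 to 0.594 over all alternatives). The difference between those effects was -0.88 ± 0.66 (adjusted p = 0.505, 95% interval -2.31 to 0.55). No genotype difference of Cxcr3 passed: the intervals ran from -0.04 to 1.98 without TGF-b, from -0.10 to 1.92 at 0.2 ng/ml and from -0.92 to 1.11 at 2 ng/ml. The rise in WT was lost without WT replicate 2 at 0 ng/ml (1.64) or WT replicate 2 at 2 ng/ml (2.18), with adjusted p from 0.00485 to 0.0693 over all alternatives. In experiment 1 its SE of 0.47 was the largest of the 5 receptors tested, against 0.19 for Ccr8.

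Cxcr4, the receptor for Cxcl12, rose with TGF-b in both genotypes from low levels. In WT cells it stood at 0.854 and 0.585 FPKM without TGF-b, 2.32 and 2.88 FPKM at 0.2 ng/ml, and 7.51 and 4.97 FPKM at 2 ng/ml. In tKO cells it stood at 2.44 and 1.03 FPKM without TGF-b, 2.97 and 2.73 FPKM at 0.2 ng/ml, and 7.89 and 6.00 FPKM at 2 ng/ml. At each of the higher doses the genotypes overlapped, and the doses of WT did not. The rise at 2 ng/ml was 2.06 ± 0.33 in WT (adjusted p = 0.00125) and 1.58 ± 0.33 in tKO (adjusted p = 0.00652). No genotype difference passed, with 95% intervals from -0.10 to 1.35, from -0.62 to 0.82 and from -0.58 to 0.87 at the 3 doses. The rise in tKO was lost without tKO replicate 2 at 0 ng/ml (1.20) or tKO replicate 1 at 2 ng/ml (1.40), with adjusted p from 0.00284 to 0.0892 over all alternatives.

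Ccr2, the receptor for Ccl2 on monocytes and memory T cells, was near the lower end of the measurement. It was listed at 0 in 8 of the 12 libraries of experiment 1 and reached 0.575 FPKM at most, in WT replicate 1 without TGF-b. In experiment 2 it was at most 0.0150 FPKM. An exact 0 can be a failed estimate: in experiment 1, 3 of 2171 symbols with a median of 50 FPKM or more were listed at 0 in some library. Ccr2 did not pass the filter of a mean of 1 FPKM and was not tested, so 5 of the 6 receptors enter the counts below. The 8 myeloid markers, of the cells that usually carry Ccr2, summed to 6.20 to 31.6 FPKM in experiment 1: Cd68 read 3.00 to 11.1 FPKM and Ly86 0.147 to 12.1 FPKM, Fcgr3, Itgam and Emr1 reached 4.02, 2.39 and 2.07 FPKM, Csf1r reached 0.00920 FPKM, and Lyz2 was listed at 0 in all 12 libraries.

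The receptors called in tKO minus WT without TGF-b were 3 of 5, Ccr8 and Ccr4 higher and Cxcr6 lower, where 9.64% of 10354 genes tested passed, 5.34% higher and 4.30% lower. With 0.2 ng/ml the same 3 receptors passed in the same directions, against 15.5% of all genes, 9.11% higher and 6.38% lower. With 2 ng/ml 1 of 5 did, Ccr4, against 16.0% in either direction and 7.82% higher. All receptors called for TGF-b alone were higher. In WT at 2 ng/ml they were 4 of 5, against 15.7% of all genes in either direction and 7.79% higher, and in tKO 3 of 5, against 18.0% and 7.59% higher. In WT at 0.2 ng/ml 2 of 5 passed, against 1.59% and 0.918% higher, and in tKO 1 of 5, against 2.48% and 1.70% higher. From 0.2 to 2 ng/ml 1 of 5 passed in WT, Ccr8, against 0.435% and 0.270% higher, and 1 of 5 in tKO, Cxcr6, against 9.57% and 2.13% higher. That all-gene count of 991 rests on single libraries: it was 10 without tKO replicate 2 and 171 without tKO replicate 1 at 2 ng/ml, 165 without tKO replicate 2 and 2375 without tKO replicate 1 at 0.2 ng/ml, and 6 with only the groups compared. With the replicate block within tKO, Ccr8 (0.62, adjusted p = 0.0322) and Cxcr4 (1.04, adjusted p = 0.0417) passed too, 3 of 5, with adjusted p over all alternatives from 0.00403 to 0.328 and from 0.0417 to 0.310. The difference of the TGF-b effects between genotypes passed for 1 of 5 at 2 ng/ml, Ccr8, against 2.97% of all genes and 1.43% lower. At 0.2 ng/ml it passed limma's threshold for 0 of 5, against 0.435%, and 1 of 5, Ccr8, had an unadjusted p under 0.05. The median of the 5 receptors was 2.30 at 2 ng/ml in WT and 1.42 in tKO, against -0.02 and -0.01 over all genes.

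**Figure D2:**
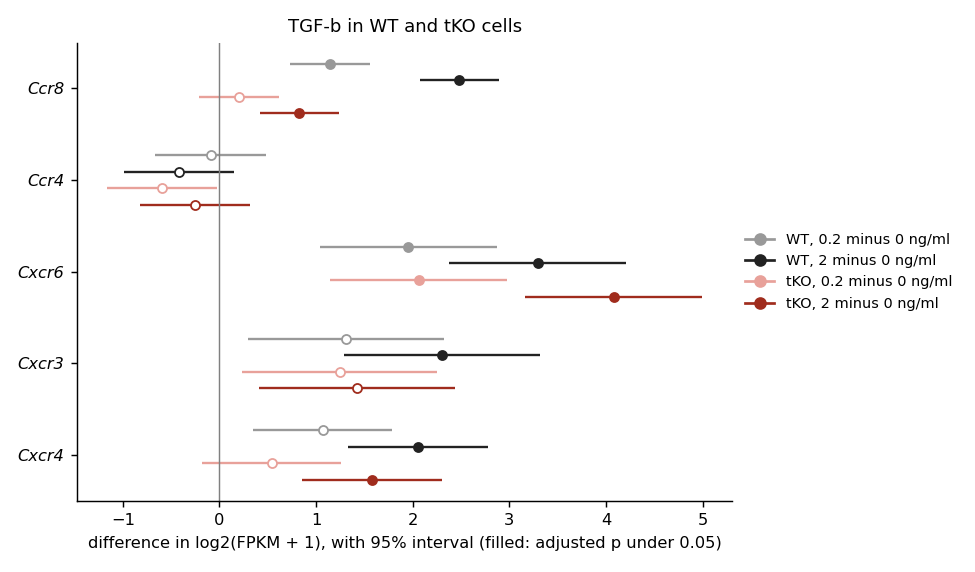
Log2(FPKM + 1) difference with 95% interval (horizontal axis) of the tested receptors (vertical axis) for TGF-b at 0.2 minus 0 and 2 minus 0 ng/ml in WT and tKO, filled where limma's adjusted p is under 0.05. At 2 ng/ml Ccr8, Cxcr3, Cxcr4 and Cxcr6 lie above 0 in WT at 2.48, 2.30, 2.06 and 3.29, and Ccr4 lies at -0.42 with an interval across 0.

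DMOG was compared with vehicle at 2 ng/ml TGF-b in other cells and another table, which tested what inhibiting the enzymes by a small molecule does. Ccr8 was 400.0, 534 and 437 FPKM with vehicle and 203, 124 and 123 FPKM with DMOG. Cxcr6 was 31.2, 56.5 and 46.6 FPKM with vehicle and 4.64, 3.06 and 3.22 FPKM with DMOG. Cxcr3 was 21.6, 31.4 and 23.7 FPKM with vehicle and 5.91, 4.08 and 4.39 FPKM with DMOG. For all 3 each DMOG library lay below each vehicle library. Ccr4 was 44.2, 49.7 and 51.2 FPKM with vehicle and 109, 63.8 and 70.5 FPKM with DMOG, each DMOG library above each vehicle library. Cxcr4 overlapped, with 45.1, 64.5 and 57.9 FPKM with vehicle and 74.4, 47.1 and 48.3 FPKM with DMOG.

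Ccr8 fell by 1.63 ± 0.17 with DMOG (adjusted p = 2.14e-07). Cxcr3 fell by 2.19 ± 0.14 (adjusted p = 7.31e-10) and Cxcr6 fell by 3.28 ± 0.18 (adjusted p = 4.50e-11). Ccr4 rose by 0.70 ± 0.16 (adjusted p = 0.00106), and Cxcr4 gave 0.00 ± 0.16 (adjusted p = 0.987, 95% interval -0.34 to 0.35). The 4 calls held without any 1 library. Of 9884 genes tested 60.8% passed, 27.7% higher and 33.2% lower, so 4 of 5 is read against a high background. Set beside tKO minus WT at 2 ng/ml, which shares no library with it, Ccr4 was higher in both (1.87 in tKO, 0.70 with DMOG) and Cxcr6 was on the low side in both (-0.83, not called, and -3.28). Ccr8 was 0.58 in tKO, not called, and -1.63 with DMOG, and Cxcr3 was 0.09, not called, and -2.19. The tables were normalized separately and the difference between tKO and DMOG effects was not tested.

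**Figure D3:**
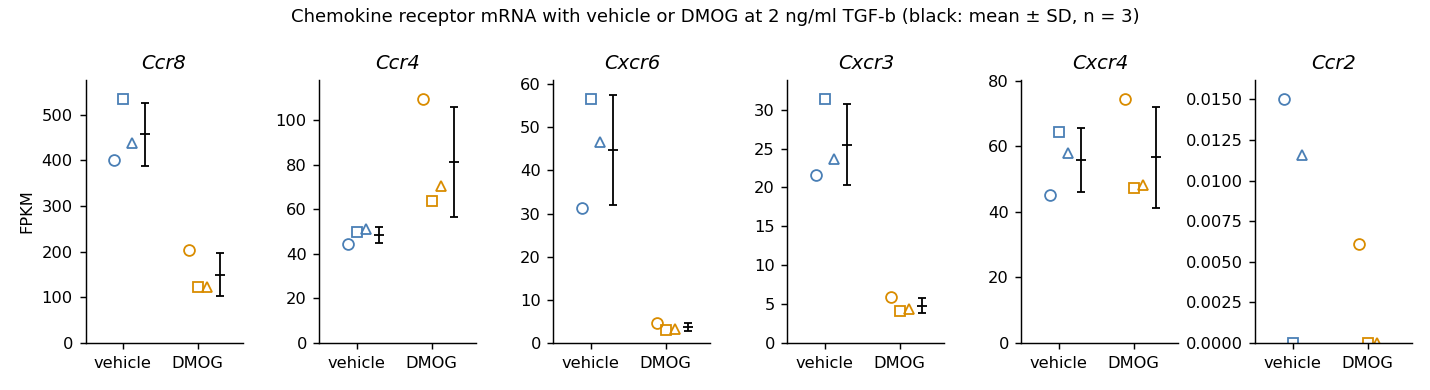
Level in FPKM (vertical axis, linear from 0, 1 panel per receptor) with vehicle or DMOG at 2 ng/ml TGF-b, where each point is 1 library and the black mark beside each group is the mean ± SD (n = 3), left out for Ccr2. Ccr8, Cxcr6 and Cxcr3 lie lower with DMOG in each library, Ccr4 higher, and Cxcr4 overlaps.

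**Figure D4:**
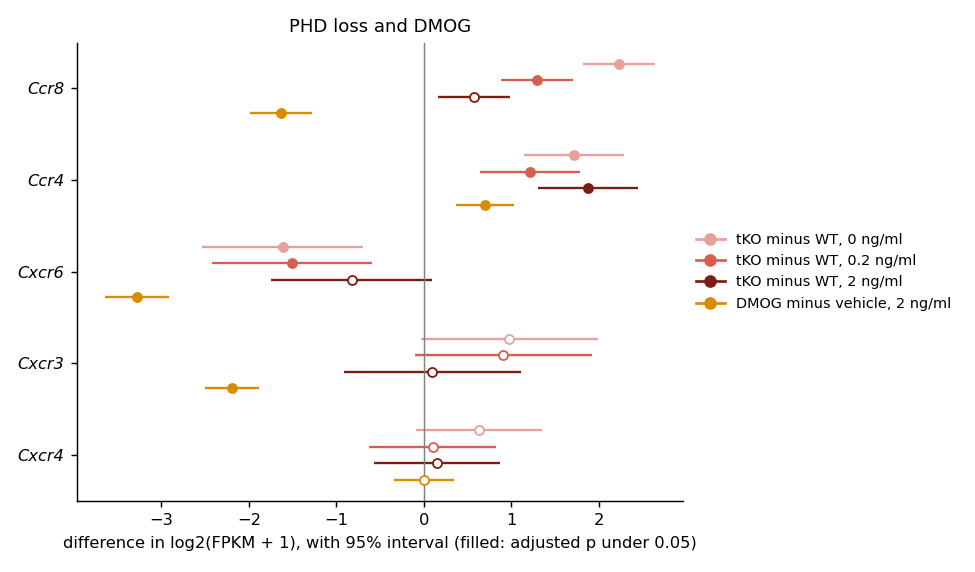
Log2(FPKM + 1) difference with 95% interval (horizontal axis) of the tested receptors (vertical axis) for tKO minus WT at 3 doses and for DMOG minus vehicle, filled where limma's adjusted p is under 0.05. Ccr4 lies above 0 in each comparison, at 1.71, 1.21 and 1.87 in tKO and 0.70 with DMOG, and Ccr8 lies above 0 in tKO and at -1.63 with DMOG.

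Markers of T cells and of other cells moved with DMOG. All 7 T cell markers fell, with Cd3e at -1.39, Cd3g at -1.29 and Cd5 at -1.18, against 33.2% of all genes lower. Their summed level was 2173 to 2547 FPKM with vehicle and 1092 to 1404 FPKM with DMOG. The median over the 7 was -1.14, against -0.03 over all genes tested. B cell markers summed to 6.85 to 11.3 FPKM with vehicle and at most 1.20 FPKM with DMOG, and myeloid markers to 10.9 to 12.1 FPKM and 2.26 to 3.89 FPKM. Natural killer and innate T cell markers summed to 6.79 to 9.50 FPKM with vehicle and 1.32 to 1.99 FPKM with DMOG, and CD8 markers to 6.33 to 8.49 FPKM and 6.86 to 10.8 FPKM. Dendritic cell markers summed to 0.308 to 0.402 FPKM with vehicle and 15.8 to 18.8 FPKM with DMOG. Most of that sum was Batf3, at 15.2 ± 1.80 FPKM (SD, n = 3) with DMOG. Zbtb46 rose as well, by 1.26, from 0.182 to 0.285 FPKM with vehicle to 1.56 to 2.32 FPKM with DMOG, and Itgax was at most 0.0707 FPKM. Their part in the receptor results was not tested.

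In experiment 1, T cell markers summed to 3059 to 3102 FPKM in WT and 2311 to 2394 FPKM in tKO without TGF-b. With 2 ng/ml they summed to 3193 to 3455 FPKM and 2473 to 2574 FPKM. Without TGF-b 1 of the 7 passed in tKO minus WT, Cd4 at -0.73, against 4.30% of all genes lower. With 0.2 ng/ml Cd4 fell by 0.78 and Cd3e fell by 0.51, while Cd2 rose by 0.95 and the CD8 marker Cd8b1 by 1.24, against 6.38% of all genes lower and 9.11% higher. With 2 ng/ml 3 of the 7 fell, Cd3d at -1.06, Cd3g at -0.77 and Cd3e at -0.70, while Cd2 rose by 0.72, against 8.16% of all genes lower and 7.82% higher. Dendritic markers reached 67.1 to 84.8 FPKM in tKO without TGF-b, against 3.29 to 3.54 FPKM in WT. At 0.2 ng/ml they summed to 14.3 to 24.5 FPKM in tKO and 2.54 to 3.25 FPKM in WT, and at 2 ng/ml to 6.27 to 7.41 FPKM and 0.512 to 0.633 FPKM. Batf3 rose in tKO by 4.92, 3.78 and 1.14 at the 3 doses, Zbtb46 rose by 2.16 at 2 ng/ml, and Itgax was at most 0.167 FPKM. Most of the dendritic sum in tKO without TGF-b was Batf3, which reached 79.1 FPKM, while Zbtb46 was at most 6.39 FPKM in any library. Clec9a was listed at 0 in all 12 libraries, Siglech in 11 and Flt3 in 7, so the sum does not show more dendritic cells. B cell markers ran from 14.4 to 83.0 FPKM over the 12 libraries and myeloid markers from 6.20 to 31.6 FPKM. CD8 markers ran from 4.02 to 14.6 FPKM, natural killer and innate T cell markers reached 5.63 FPKM, and mast cell and basophil markers 0.436 FPKM. Their part in the receptor results was not tested.

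Of the other receptors that bind chemokines, 17 of 18 listed were in the table of experiment 1 and 5 passed the filter: Ccr6, Ccr7, Cxcr5, Cx3cr1 and Ccrl2. In WT at 2 ng/ml 3 of the 5 rose, Cxcr5, the follicular homing receptor, by 3.05, Ccr6, the Th17 receptor for Ccl20, by 2.49 and Cx3cr1, the fractalkine receptor, by 2.29. The atypical receptor Ccrl2 fell by 1.82 there, and Ccr7 gave 0.25 (adjusted p = 0.454). Over all genes 7.79% were higher and 7.91% lower in that comparison. In tKO at 2 ng/ml Ccr6 rose by 2.96, Cx3cr1 by 2.85 and Ccr7 by 0.70, against 7.59% of all genes higher. The effect of 2 ng/ml TGF-b on Cxcr5 differed between genotypes by -2.54 ± 0.49 (adjusted p = 0.0155). That was 1 of 5 called, against 2.97% of all genes and 1.43% lower. Without TGF-b, limma called 0 of 5 between genotypes, with 0 of 5 at an unadjusted p under 0.05, against 9.64% of all genes called. In tKO against WT at 2 ng/ml Cxcr5 fell by 2.21 and Ccrl2 rose by 1.76. With DMOG 3 of 5 fell, Cxcr5 at -5.27, Ccr6 at -3.52 and Cx3cr1 at -2.48, and Ccrl2 rose by 1.24, against 33.2% of all genes lower and 27.7% higher. The median of the 5 was 2.29 at 2 ng/ml in WT and -2.48 with DMOG, against -0.02 and -0.03 over all genes. Ccr7 was the highest of the 5 in experiment 1, at 397 to 1055 FPKM, and gave -0.33 with DMOG (adjusted p = 0.107).

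Genes for the ligands of the receptors moved too. Of 12 listed, 4 passed the filter in experiment 1 and 2 in experiment 2. Ccl1, the ligand of Ccr8, held 3.15 and 8.71 FPKM in WT and 85.5 and 139 FPKM in tKO without TGF-b, and 25.5 and 27.9 FPKM in WT and 386 and 866 FPKM in tKO at 2 ng/ml. It rose in tKO by 4.11, 5.06 and 4.39 at the 3 doses. Ccl22, a ligand of Ccr4, rose in tKO by 2.04, 2.90 and 3.02, and Ccl17, another, by 3.24 and 2.25 at the 2 lower doses, where it was listed at 0 in all 4 WT libraries. In WT at 2 ng/ml Ccl1 rose by 2.13 and Ccl22 fell by 2.37. With DMOG Ccl22 rose by 3.50 and Ccl1 by 2.73. Over the ligands tested the median was 2.64 in tKO minus WT without TGF-b, against -0.00 over all genes.

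Genes of receptor signalling and desensitisation were tested for 22 of 24 in experiment 1 and 23 in experiment 2. Without TGF-b 5 rose and 1 fell in tKO, led by the RGS proteins, which shut off G proteins: Rgs2 by 2.11, Rgs16 by 1.41 and Rgs1 by 1.31, while the receptor kinase Grk6 fell by 1.14, against 5.34% of all genes higher and 4.30% lower. In tKO against WT at 2 ng/ml 3 rose and 3 fell, among them Arrb1, a beta-arrestin, by 1.38, and Rgs10 at -1.92. Over all genes 7.82% were higher and 8.16% lower in that comparison. Rgs10 and Rgs16 rose by 2.06 and 2.13 with 2 ng/ml in WT, and the effect on Rgs10 differed between genotypes by -1.59 (adjusted p = 0.00624). With DMOG 8 rose and 8 fell, with Rgs2 up by 1.42, Rgs1 up by 1.33 and Rgs10 at -2.66 among the largest, where 27.7% of all genes were higher and 33.2% lower, so these shares are near the background. The list's median was -0.17 in tKO minus WT without TGF-b and 0.01 with DMOG, against -0.00 and -0.03 over all genes.

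Of 8 listed regulators of T helper lineages 6 were tested. In tKO without TGF-b Bhlhe40 rose by 2.41, Gata3, the Th2 regulator, by 2.16 and Tbx21, the Th1 regulator, by 1.96, while Klf2, a factor for recirculation, fell by 4.37 and Foxp3, the regulatory T cell factor, fell by 3.78. With 2 ng/ml Tbx21 rose by 4.46, Bhlhe40 by 2.68 and Gata3 by 1.16 in tKO, and Klf2 fell by 1.88. With DMOG Tbx21 rose by 5.60 and Bhlhe40 by 2.02, while Klf2 fell by 3.60 and Foxp3 fell by 3.00. The median of the 6 was 0.78 in tKO minus WT without TGF-b, against -0.00 over all genes. Of 18 genes listed around Ccr8, Cxcr6, Ccr2 and Ccr4 on chromosome 9, 8 were tested in experiment 1, and limma called 0 of them between genotypes without TGF-b, with 2 of 8 at an unadjusted p under 0.05. Over all genes 9.64% passed in that comparison. With 2 ng/ml 1 was higher and 3 were lower in tKO, against 7.82% of all genes higher and 8.16% lower. Ccr4 (chr9:114398294-114406572), Ccr8 (chr9:120000149-120009349), Cxcr6 (chr9:123698627-123771246) and Ccr2 (chr9:124016921-124023879) all lie on that chromosome in the mm9 build of the files. The interval of Cxcr6 is shared with Fyco1, which read 0 to 0.955 FPKM in experiment 1 and 0.435 to 2.10 FPKM in experiment 2.

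For each tested receptor the 3 genes with the highest Pearson r over the 12 libraries of experiment 1 are named, as a description. The libraries share groups, so these r are not evidence of shared control, and r over the 6 libraries of experiment 2 is given beside them. Ccr8 was most like Rtkn (0.959 and -0.884), Cpd (0.954 and 0.641) and Lgals3, galectin-3 (0.951 and -0.936). Ccr4 was most like Stra6, a retinol transporter (0.971 and 0.917), Ell2 (0.964 and 0.837) and Clybl (0.961 and 0.787). Cxcr6 was most like Neurl3 (0.981 and 0.986), Nt5e, the CD73 ectoenzyme (0.974 and 0.998), and Atp1b1 (0.969 and 0.992). Cxcr3 was most like N4bp1 (0.959 and 0.591), Ssh1 (0.922 and 0.036) and Rbm44 (0.919 and 0.975). Cxcr4 was most like Ikzf4, the Ikaros family factor Eos (0.961 and 0.179), Plekhf2 (0.950 and -0.160) and Ccng2 (0.947 and 0.204). The partners of Ccr4, Cxcr6 and Cxcr3 kept a positive r in experiment 2, though only 0.036 for Ssh1 with Cxcr3. For Ccr8, 2 of the 3 partners did not, and for Cxcr4 Plekhf2 did not.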

How the data were processed

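Per the labels' protocols, libraries were made from polyadenylated RNA with a SMARTer kit for low input, which does not mark strand, so overlapping genes are uncertain. Trimmomatic, TopHat, Cufflinks and Cuffdiff, with the mm9 build, come from the submitters' processing notes, which state no versions. FPKM values per library were deposited by the authors, per the file headers, in 1 table per experiment, so tests stayed within a table. Exact duplicate entries were dropped and distinct entries with the same symbol summed; Ccr4 and Ccr8 each had 2 in experiment 1. Symbols with a mean of at least 1 FPKM were tested on log2(FPKM + 1), a scale that understates changes of low genes, with limma 3.58.1 in R 4.3.3. The model had 1 coefficient per group, a shared spread and a mean-variance trend, tests were two-sided, and Benjamini-Hochberg adjustment ran over all symbols tested. It was tested on simulated data. Named genes were all 6 receptors, up to 3 called genes per direction of each list, and 3 most alike genes per receptor. The receptors and lists were chosen with earlier results of these data known. This main model had no term for the replicate number, so its tKO dose tests were not paired. Replicate numbers were taken to pair the tKO libraries across doses in the replicate block within tKO. The reason was that Y-linked transcripts mark replicate 1 at each dose and deviations of same-numbered tKO libraries correlated at 0.110 to 0.416. Alternatives were a pseudocount of 0.1, no filter, quantile normalization, a replicate block, only the groups compared, each library left out and, chosen after seeing the data, a replicate block within tKO and only the larger entry of Ccr4 and Ccr8.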

Additional observations from a re-analysis of the deposited data

Results flagged for a closer look

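The effect of 2 ng/ml TGF-b on Ccr8 differed between the genotypes by -1.66 on the log2(FPKM + 1) scale (tKO effect minus WT effect, limma adjusted p = 0.00655). The difference itself was tested, and it held without any 1 library, with values from -1.84 to -1.47. Both genotypes rose with the dose on that scale, WT by 2.48 from a mean of 77.3 FPKM and tKO by 0.83 from a mean of 364 FPKM.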

How the results depend on the processing

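The number of receptors called moved by over 1.5 times in some alternatives. A pseudocount of 0.1 left 1 at 0.2 ng/ml in WT. No filter on low values left 0 at 0.2 ng/ml in WT, 0 at 0.2 ng/ml in tKO and 0 from 0.2 to 2 ng/ml in tKO. Quantile normalization gave 2 in tKO minus WT at 2 ng/ml and 2 from 0.2 to 2 ng/ml in tKO. Only the groups compared gave 1 in tKO minus WT at 0.2 ng/ml, 3 at 2 ng/ml, and 0 in WT at 0.2 ng/ml, in WT from 0.2 to 2 ng/ml, in tKO at 0.2 ng/ml and in tKO from 0.2 to 2 ng/ml. Outside the tKO doses replicate numbers were not taken as pairing: deviations of same-numbered libraries correlated at 0.043 to 0.255 between genotypes at one dose, -0.106 to 0.250 at different doses, 0.057 to 0.186 between WT doses and -0.194 to 0.443 between vehicle and DMOG, where not every library correlated best with its own number. The replicate block within tKO, chosen after seeing the data, gave 3 from 0.2 to 2 ng/ml in tKO. The replicate block over all libraries gave 2 in tKO minus WT at 2 ng/ml, adding Ccr8 (adjusted p = 0.0489), and 3 from 0.2 to 2 ng/ml in tKO, adding Ccr8 (adjusted p = 0.0464) and Cxcr4 (adjusted p = 0.0485), and called Cxcr3 at 2 ng/ml in tKO (adjusted p = 0.0490). With each library left out the counts ran, for tKO minus WT, from 1 to 3 at 0.2 ng/ml; in WT from 0 to 2 at 0.2 ng/ml and from 0 to 1 from 0.2 to 2 ng/ml; in tKO from 0 to 1 at 0.2 ng/ml, from 1 to 3 at 2 ng/ml and from 0 to 2 from 0.2 to 2 ng/ml. The cause was not tested. Among all genes called from 0.2 to 2 ng/ml in tKO, 22.3% were higher (221 and 770 lower), and 40.4% after quantile normalization (340 and 501).

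Reversed signs concern only differences that were not called. Cxcr4 with DMOG became -0.076 after quantile normalization, and -0.21 to 0.12 with a library left out. With a library left out, tKO minus WT ran from -0.011 to 0.21 for Cxcr4 at 0.2 ng/ml, and at 2 ng/ml from -0.16 to 0.35 for Cxcr3 and -0.11 to 0.40 for Cxcr4. TGF-b effects on Ccr4 ran from -0.44 to 0.25 (0.2 ng/ml, WT), -0.67 to 0.016 (0.2 to 2 ng/ml, WT) and -0.52 to 0.016 (2 ng/ml, tKO), on Ccr8 from -0.0015 to 0.35 (0.2 ng/ml, tKO) and on Cxcr3 from -0.11 to 0.44 (0.2 to 2 ng/ml, tKO). Genotype differences of the TGF-b effect ran from -0.72 to 0.59 for Cxcr3 and -0.85 to 0.89 for Cxcr6 at 0.2 ng/ml, and from -0.11 to 0.44 for Ccr4 at 2 ng/ml.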

Other observations

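WT cells at 2 ng/ml TGF-b and vehicle-treated Wildtype cells at the same dose come from separately normalized tables, so their levels are set side by side with no test. Ccr8 was 434 ± 43.6 FPKM (SD, n = 2) in the first and 457 ± 69.1 FPKM (SD, n = 3) in the second, and Cxcr6 64.1 ± 5.81 and 44.8 ± 12.8 FPKM. Cxcr4 was 6.24 ± 1.80 and 55.8 ± 9.84 FPKM, Ccr4 17.8 ± 5.08 and 48.4 ± 3.67 FPKM, and Cxcr3 12.8 ± 1.64 and 25.5 ± 5.15 FPKM.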
